A study of Mus musculus with 46 samples.

Results

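The kinesin motor family was taken as every gene of the deposited RNA count table whose symbol starts with Kif and a digit, which gave 39 genes of 20999. By textbook role, 12 of them were set down as mitotic kinesins, 13 as transport kinesins and 14 as kinesins of other or mixed roles. Kif1bp, the KIF1-binding protein, carries the symbol without being a motor and was kept among the others. For 32 genes (11 mitotic, 12 transport and 9 other) the counts were high enough to be tested. Kif2b had no count in any library, and Kif6, Kif12, Kif17, Kif26a, Kif26b and Kif28 stayed under the count filter.

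The libraries came from microglia, the resident macrophages of the brain, sorted from male C57BL/6 mice by CD11b, CD45 and CD44. RNA was sequenced from 5 groups of 2 libraries each: wild-type adults of 90 days, and Ki67-negative and Ki67-positive cells of Ki67-rfp reporter mice, taken either at postnatal day 8 (PND8) or at 75 days during repopulation. Ki67 is a nuclear protein of cycling cells. Repopulation means that the mice ate the PLX5622 diet, a CSF1 receptor inhibitor that removes microglia, for 17 days from day 55 and then recovered for 3 days, so those cells are survivors of the diet and their progeny. The label of the adult RNA libraries calls the cells Ki67-negative although the mice carry no reporter. Chromatin was profiled in wild-type mice, with cells fixed and stained for Ki67: H3K27ac, a mark of active promoters and enhancers, in adults (60 and 65 days), at PND8, at 90 days after 4 weeks of cuprizone (a diet that damages myelin) and in repopulation at 90 days (PLX5622 from day 70 for 17 days, then 3 days of recovery). H3K4me3, a mark of promoters, was profiled in adults of 75 days, and Rpb2, a subunit of RNA polymerase II, in adults of 60 and 65 days and in 1 library of PND8 Ki67-positive cells. ATAC-seq, which maps open chromatin, had 1 library each of adults (80 days), PND8 Ki67-positive cells and Ki67-positive repopulating cells (75 days), the latter pair labelled wild type although their titles name the reporter. The title of the second adult Rpb2 library gives 60 days, and that of its input gives 65 days. The headers of the adult H3K27ac and Rpb2 lists name a vehicle, for which the labels give no treatment. All cells were isolated in butyrate and flavopiridol, which block histone deacetylases and transcription elongation, so every group shares them.

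Kinesins are motors that use ATP to move along microtubules or to take their ends apart. Mitotic kinesins build the spindle, align chromosomes and complete the division of the cell, and their transcripts rise in the late cell cycle and fall after division. Transport kinesins carry vesicles, organelles and ciliary cargo in cells that do not divide as well as in those that do.

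Before the values, the start sites of the genes the results turn on are shown, because their promoters carry letters that are known from genes of the late cell cycle. A CCAAT box (CCAAT, bound by NF-Y) and a CHR element (TTTGAA, bound by the DREAM and MuvB complexes) are in capitals on whichever strand they lie. Each run is the 120 bases just before the start site of the RefSeq transcript (GRCm38.p6), read 5′ to 3′ on the strand of the gene. The first 5 are mitotic kinesins, and Kif3b, a transport kinesin, stands beside them for comparison. They lie at chr19:37376262-37376381 (plus strand), chr7:127042421-127042540 (minus), chr9:122950961-122951080 (plus), chr11:102925125-102925244 (minus), chr1:136467728-136467847 (plus) and chr2:153291296-153291415 (plus).
Kif11: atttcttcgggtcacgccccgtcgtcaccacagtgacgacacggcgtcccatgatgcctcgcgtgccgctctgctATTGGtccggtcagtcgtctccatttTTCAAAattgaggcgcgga
Kif22: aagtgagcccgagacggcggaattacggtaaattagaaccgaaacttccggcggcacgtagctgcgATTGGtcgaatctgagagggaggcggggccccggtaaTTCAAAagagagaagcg
Kif15: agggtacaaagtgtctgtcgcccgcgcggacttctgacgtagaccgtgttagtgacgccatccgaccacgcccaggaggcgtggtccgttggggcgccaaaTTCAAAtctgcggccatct
Kif18b: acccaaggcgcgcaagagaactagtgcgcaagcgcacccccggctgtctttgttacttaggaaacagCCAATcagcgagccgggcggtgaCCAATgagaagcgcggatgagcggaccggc
Kif14: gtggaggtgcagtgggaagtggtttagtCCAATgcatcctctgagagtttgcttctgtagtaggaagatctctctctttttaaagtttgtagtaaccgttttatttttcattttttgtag
Kif3b: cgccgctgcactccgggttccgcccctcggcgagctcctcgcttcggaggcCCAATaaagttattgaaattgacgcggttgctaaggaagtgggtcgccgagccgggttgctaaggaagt

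Kif11 and Kif22 showed both elements in this stretch, the CHR letters 19 and 17 bases before the start. Kif15 showed a CHR 19 bases before its start, Kif18b had 2 CCAAT boxes, and Kif14 and Kif3b had 1 CCAAT box each. RefSeq entries with a start within 1 kb of that of the count table were found for 10 mitotic, 10 transport and 10 other members. In the 250 bases before the start, CCAAT was found in 7 mitotic, 3 transport and 5 other promoters, against 34.5% of 27025 genes. TTTGAA was found there in 4 mitotic, 0 transport and 2 other promoters, against 16.3% of all genes. When the 50 bases after the start were searched as well, a window chosen after the values were seen, TTTGAA was found in 8 of 10 mitotic and 0 of 10 transport promoters, against 18.1% of all genes. The letters GGGCGG (a GC box, bound by Sp1) did not separate the roles, with 6 of 10 in each against 32.9%, and GCGGGAA, a form of the E2F site, was in 0 mitotic promoters, 0 transport promoters and 1 other, against 3.84%. These are matches of letters on either strand, not sites shown to be bound. Kif20a, Kif5a, Kif5b, Kif13b, Kif19a, Kif21b and Kif28 had no entry.

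The first question was whether cycling microglia carry more kinesin transcripts than Ki67-negative cells of the same age and treatment. Values are given in CPM, counts as a share of the total over the tested genes after TMM scaling between libraries, on the usual scale. Mki67, which encodes Ki67, checked the sort. At PND8 it stood at 242 and 282 CPM in Ki67-negative and 919.6 and 1107 CPM in Ki67-positive libraries. In repopulation it stood at 336 and 463 against 930.1 and 1087 CPM. Adult libraries held 13.4 and 11.0 CPM, so the Ki67-negative fractions still carried many more Mki67 transcripts than the adult cells did. Libraries held 6865903 to 10287876 counts, and the labels call the 2 libraries of a group independent biological replicates. The p-values set a difference against the spread between such replicates, estimated over all 10 libraries. The 6 microglia markers summed to 5501 to 7586 CPM in every library.

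At PND8, 11 of 11 tested mitotic kinesins were higher in Ki67-positive than in Ki67-negative cells, against 2.75% of the 12230 genes tested in that direction (edgeR quasi-likelihood test, Benjamini-Hochberg adjusted p under 0.05). Their median log2 fold change was 1.76, where the median of all genes was -0.03. No transport kinesin (0 of 12) and no other kinesin (0 of 9) passed the threshold in either direction, which 5.9% of all genes did (3.15% lower), and their medians were 0.13 and -0.01. In repopulation the picture was the same in counts: 11 of 11 mitotic kinesins were higher, against 1.87% of all genes, with a median of 1.48, and 0 of 12 transport and 0 of 9 other kinesins passed, where 2.74% of all genes did in either direction (0.867% lower). At these shares of all genes, counts of 0 of 12 and 0 of 9 are near the background in both contexts. Both Ki67-positive libraries lay above both Ki67-negative ones for all 11 mitotic genes in each context, as they did for 19.1% of all tested genes at PND8 and 23.9% in repopulation. A further fit took the header code as a covariate, a number in the column headers that the labels do not explain. A Ki67-positive library shares it with the Ki67-negative one of the same number. With the code, 1862 of 12230 genes were called at PND8 and 1213 in repopulation, against 721 and 335 without it. All 11 mitotic kinesins stayed called and some further kinesins passed. At PND8 these were Kif1b (0.39, edgeR adjusted p = 0.00611), Kif1c (0.26, 0.024), Kif3b (0.26, 0.0197) and Kif16b (0.38, 0.0374), all higher, and Kif9 (-1.04, 0.00294), which was lower. In repopulation they were Kif1c (0.30, 0.0193), higher, and Kif13b (-0.35, 0.00775), lower.

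**Figure D1:**
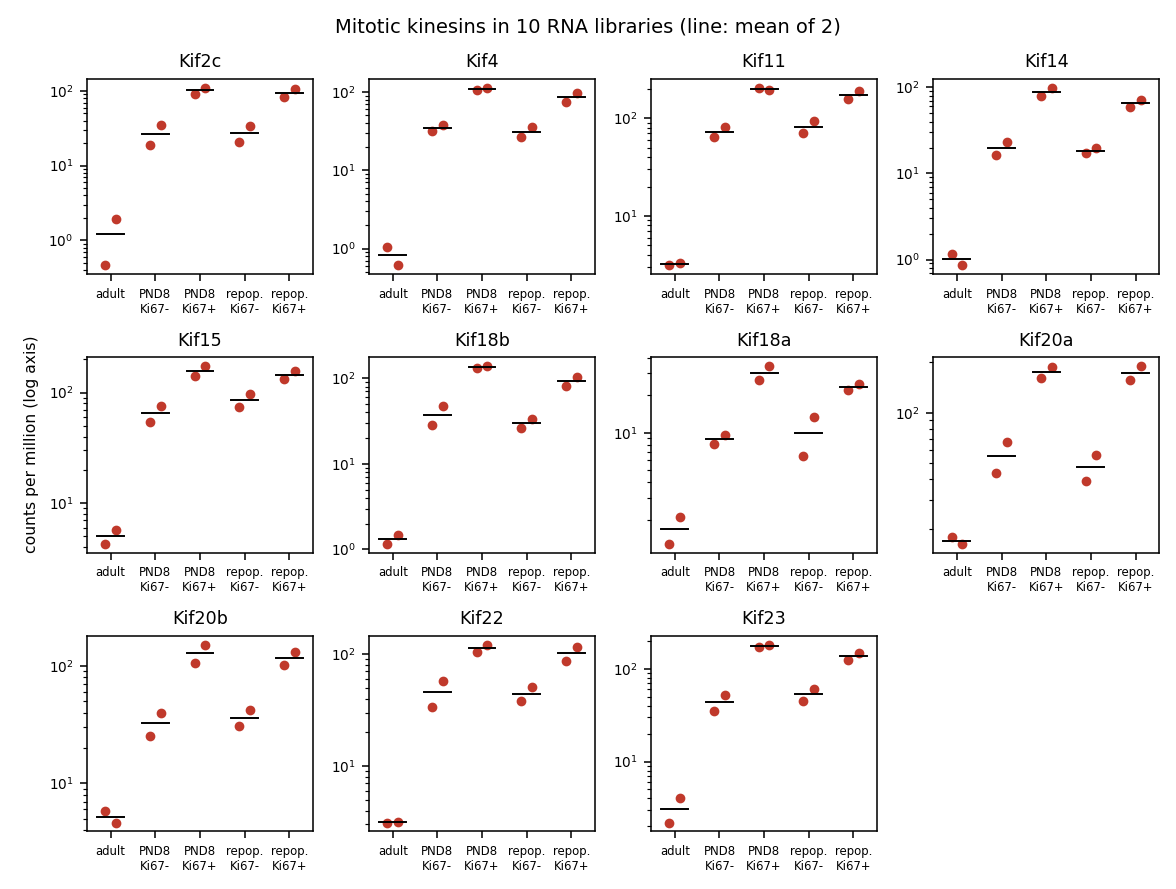
CPM of the 11 mitotic kinesins with counts, 1 panel per gene, in the 5 RNA groups (log axis, points are libraries, lines are means of 2). In every panel both Ki67-positive groups stand above both Ki67-negative groups, and the adult libraries lie lowest, with Kif20a the least far below at 17.9 and 16.4 CPM.

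The motors that form the bipolar spindle rose in both contexts, and differences in size between genes were not tested. Kif11 (chr19:37376382-37421863; gene spans are those of the count table, mm10), the kinesin-5 that slides antiparallel microtubules apart, was at 3.12 and 3.30 CPM in adults, 64.2 and 81.4 CPM in PND8 Ki67-negative, 205 and 192 CPM in PND8 Ki67-positive, 69.9 and 93.3 CPM in repopulation Ki67-negative and 158 and 189 CPM in repopulation Ki67-positive libraries. The Ki67-positive libraries were highest in both contexts. Its log2 fold change between Ki67 fractions was 1.44 ± 0.14 (SE, n = 2 and 2) at PND8 and 1.10 ± 0.14 in repopulation (edgeR adjusted p = 4.83e-05 and 0.000687). Kif15 (chr9:122951081-123018733), the kinesin-12 that can keep spindles bipolar beside Kif11, had the smallest estimate of the 11 in both contexts, at PND8 within 1 SE of that of Kif22. It was at 54.3 and 75.5 against 141 and 173 CPM at PND8 and at 73.6 and 98.0 against 134 and 157 CPM in repopulation, log2 fold changes of 1.27 ± 0.17 and 0.77 ± 0.17 (edgeR adjusted p = 0.00058 and 0.0275).

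Kinesins that act on chromosomes and kinetochores came next. Kif2c (chr4:117159636-117182624), a kinesin-13 that takes microtubule ends apart to correct wrong attachments, was at 18.7 and 34.7 against 92.5 and 111 CPM at PND8 and 20.9 and 34.4 against 82.1 and 107 CPM in repopulation. That is a log2 fold change of 1.91 ± 0.28 and 1.80 ± 0.28 (SE, n = 2 and 2). Kif18a (chr2:109280738-109341746), a kinesin-8 that aligns chromosomes, had the lowest CPM of the 11 in these 4 groups, at 8.17 and 9.54 against 26.3 and 34.2 CPM at PND8 and 6.45 and 13.4 against 22.0 and 24.8 CPM in repopulation. Its 2 repopulation Ki67-negative libraries differed by a larger ratio than those of the other 10 mitotic kinesins, and its log2 fold change there was 1.27 ± 0.29 (edgeR adjusted p = 0.0302). Its relative Kif18b (chr11:102905519-102925124), which shortens astral microtubules, rose by 1.83 ± 0.19 at PND8 and 1.64 ± 0.20 in repopulation on the log2 scale. The chromokinesins Kif4 (chrX:100626065-100727271) and Kif22 (chr7:127027731-127042420), which bind chromosome arms, rose by 1.64 ± 0.17 and 1.28 ± 0.21 at PND8 and by 1.48 ± 0.17 and 1.20 ± 0.22 in repopulation.

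Kinesins of the midzone and of cytokinesis included the largest single Ki67 difference in each context, that of Kif14 at PND8 and that of Kif20a in repopulation. Kif14 (chr1:136467848-136530819), which works with citron kinase at the cleavage furrow, was at 16.3 and 23.2 against 78.9 and 99.1 CPM at PND8 and at 17.1 and 19.8 against 59.7 and 71.1 CPM in repopulation. Its log2 fold change of 2.16 ± 0.17 was the largest of the family at PND8 (edgeR adjusted p = 1.46e-05). Kif20a, which brings the chromosomal passenger complex to the midzone, was at 38.9 and 55.8 against 156 and 189.6 CPM in repopulation and led there with 1.88 ± 0.19 (edgeR adjusted p = 0.00014), after 1.65 ± 0.19 at PND8. Kif23 (chr9:61917278-61946799), the motor of centralspindlin, rose by 1.99 ± 0.19 and 1.38 ± 0.19, and Kif20b (chr19:34922358-34975750) by 1.97 ± 0.22 and 1.69 ± 0.22, at PND8 and in repopulation respectively.

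**Figure D2:**
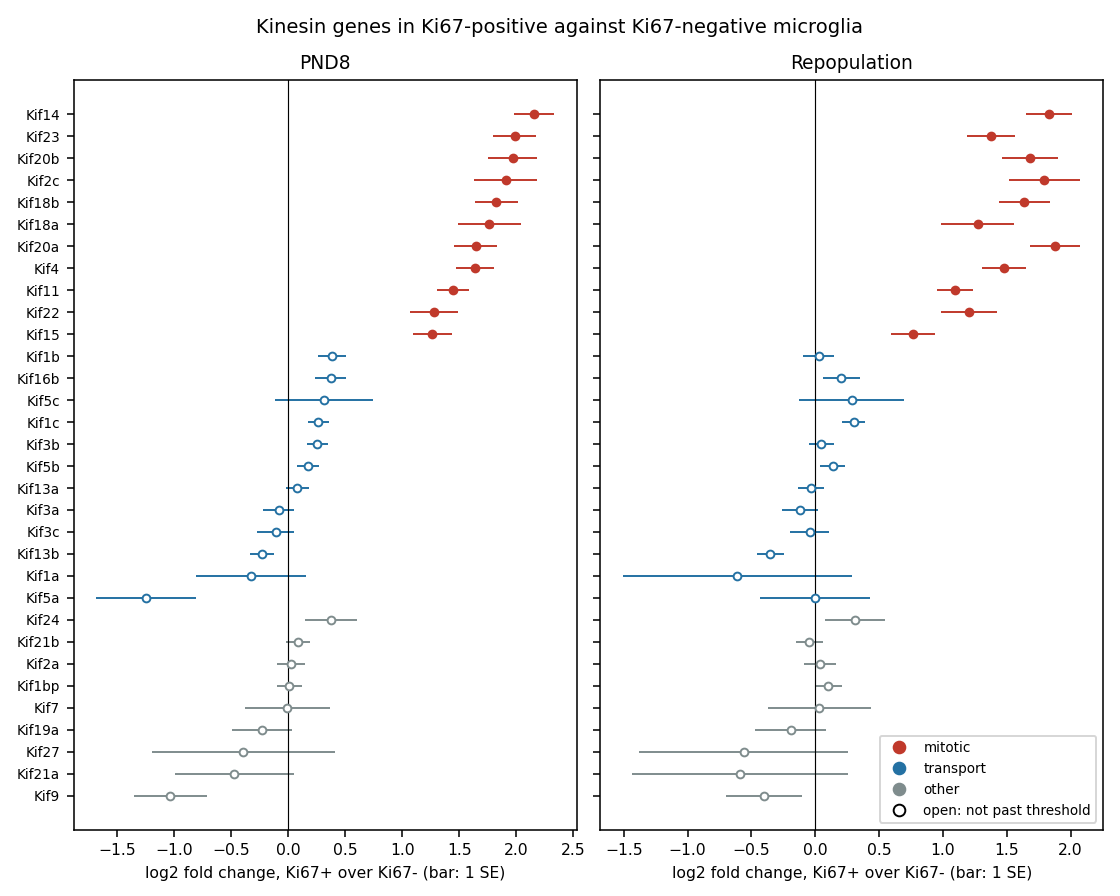
Log2 fold change of the 32 tested members between Ki67-positive and Ki67-negative microglia at PND8 (left) and in repopulation (right), with bars of 1 SE. Filled points passed the threshold: all 11 mitotic kinesins lie between 0.77 and 2.16, and no transport or other kinesin is filled. Of all genes, 5.9% passed at PND8 and 2.74% in repopulation.

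The ranking of the 11 differed between contexts, but no member passed the test of the difference itself. In that interaction, 0 of 32 members and 0 of 12230 genes were called by edgeR (percent called: 0), with 613 genes at an unadjusted p under 0.05, and DESeq2 called 3 genes. Other settings called 71 genes (without the first PND8 Ki67-negative library), 52 (no filter on low counts) and 28 (the header code as a covariate), and in none of these 4 was a kinesin among them. The largest value among mitotic kinesins was that of Kif23, -0.61 ± 0.26 on the log2 scale (unadjusted p = 0.0346, edgeR adjusted p = 0.96). Against PND8, Ki67-positive cells of repopulation had lower Kif18b, at 82.0 and 104 against 132 and 138 CPM (-0.54 ± 0.18, edgeR adjusted p = 0.04), a call that was lost without either PND8 library (0.0957 and 0.132) and without the first repopulation library (-0.39, 0.248). The other 10 mitotic kinesins ranged from -0.45 for Kif14 to -0.01 for Kif20a and did not pass, and 14.2% of all genes were called lower and 30.9% in either direction there. Among Ki67-negative cells 0 of 11 mitotic kinesins differed between the contexts, where 36.6% of all genes did. In bulk RNA, fewer cells of a kind and less RNA per cell cannot be told apart, here for the share of cells in each cycle stage.

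Single libraries decided some of the repopulation calls: without the first Ki67-negative library the count fell from 11 to 7 (Kif2c at an edgeR adjusted p of 0.0696, Kif15 at 0.328, Kif18a at 0.316 and Kif22 at 0.137), without the second Ki67-positive library Kif15 (0.272), Kif18a (0.222) and Kif22 (0.098) were lost, and without the first Ki67-positive library Kif18a (0.0678). Within each of the 4 pairs with a common header code, all 11 mitotic kinesins were higher in the Ki67-positive library, from 1.37 to 2.30 and 1.06 to 2.09 on the log2 scale at PND8 and from 0.86 to 2.00 and 0.68 to 1.84 in repopulation.

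Genes of the proteins that mitotic kinesins work with were also higher. Of 17 listed partners, which include the kinesins Cenpe, Kifc1 and Kifc5b that fall outside the symbol rule, 16 were higher in Ki67-positive cells at PND8 and 15 in repopulation, with medians of 1.52 and 1.32, against 2.75% and 1.87% of all genes. Cenpe, the kinetochore kinesin, was at 37.0 and 63.0 against 218 and 281 CPM at PND8 (2.30 ± 0.22, edgeR adjusted p = 4.54e-05), the largest there. Hmmr, a spindle assembly factor, led in repopulation with 2.11 ± 0.22, and Incenp, a scaffold of the passenger complex, was the smallest called in both (0.83 ± 0.12 and 0.71 ± 0.13). Of the transport lists, 0 of 17 tested transport partners, such as kinesin light chains and cargo adaptors, and 0 of 17 tested dynein and dynactin subunits passed in either context, where 5.9% (PND8) and 2.74% (repopulation) of all genes did, shares at which a count of 0 in 17 is near the background. Among 11 tested tubulins, Tubb4b (1.48 ± 0.14 and 1.38 ± 0.14) and Tuba1c (1.29 ± 0.19 and 1.13 ± 0.20) rose in both contexts, and Tubg1, the gamma-tubulin of centrosomes, fell at PND8 (-0.53 ± 0.14, edgeR adjusted p = 0.0482). These lists were chosen with earlier results of these data known.

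The second question was how the groups with cycling cells differ from adult microglia. All 11 tested mitotic kinesins were higher than in adults in all 4 groups, the Ki67-negative ones included, where 21.5% to 25.4% of all genes were called higher (25.4% in PND8 Ki67-negative, 25.1% in PND8 Ki67-positive, 21.5% in repopulation Ki67-negative and 23.9% in repopulation Ki67-positive cells). Their median log2 fold changes were 3.87 and 5.82 at PND8 and 4.09 and 5.46 in repopulation, Ki67-negative first, against medians of all genes between -0.01 and 0.03. Kif4 led in all 4, from 1.04 and 0.611 CPM in adults to 31.8 and 38.2 CPM in PND8 Ki67-negative and 106 and 113 CPM in PND8 Ki67-positive libraries (5.38 ± 0.30 and 7.02 ± 0.28). Adult counts behind that value were 9 and 5, so the size of the fold rests on few reads. Kif20a had the smallest difference in all 4 (1.70 ± 0.22, 3.34 ± 0.21, 1.45 ± 0.22 and 3.33 ± 0.21), with the highest adult level of the 11 per length (7.49 ± 0.503 TPM, transcripts scaled for length and depth, mean ± SD, n = 2). The gene's span overlaps that of Cdc23 on the other strand by 1595 bases. Cdc23 stood at 67.0 and 69.2 CPM in adults, here as a share of the unscaled library total. Since the strand setting of the counting is not given, reads of the pair cannot be told apart. Adult libraries also share a header code and a genotype that no other RNA library has, so age, reporter and code cannot be told apart in any comparison with adults. The 5 monocyte and neutrophil markers summed to 47.2 and 198 CPM in adults and to at most 2.97 CPM in the other 8 libraries, and the 4 tested ones were lower in all 4 comparisons. The 4 erythroid markers summed to 16.6 to 55.4 CPM at PND8 and at most 5.01 CPM in adults, and all 4 were higher in both PND8 groups than in adults. The part of these cells in the differences from adults was not tested.

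Summed over the family per length, mitotic kinesins stood at 17.0 and 18.4 TPM in adults, 140.3 and 215 TPM in PND8 Ki67-negative, 529 and 594 TPM in PND8 Ki67-positive, 152 and 201 TPM in repopulation Ki67-negative and 415 and 505 TPM in repopulation Ki67-positive libraries. Transport kinesins summed to between 159 and 214 TPM in all 10 libraries. In adults the mitotic sum lay below the transport sum, and in all 4 Ki67-positive libraries it lay above it. Among single genes, Kif21b was the most abundant member in every group (172 ± 6.48 TPM in adults and 133 ± 2.74 TPM in repopulation Ki67-positive cells, SD, n = 2). Kif21b is a kinesin that limits microtubule growth and is known from neurons and immune cells.

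Transport kinesins moved in both directions against adults. At PND8, 4 of 12 were higher and 3 lower in Ki67-negative cells, and 6 were higher and 4 lower in Ki67-positive cells, where 21.4% and 24.3% of all genes were called lower. In repopulation 3 were higher and 1 lower in Ki67-negative cells (17.6% of all genes lower) and 4 higher and 1 lower in Ki67-positive cells (21% lower). Of all genes, 25.4%, 25.1%, 21.5% and 23.9% were called higher in the 4 comparisons. In either direction 46.8%, 49.5%, 39.2% and 44.9% of all genes were called, and 7, 10, 4 and 5 of the 12 transport kinesins. Outside PND8 Ki67-positive cells these counts were near the share of all genes.

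Kif5b, the ubiquitous heavy chain of kinesin-1, was higher than in adults in all 4 groups. It was at 124 and 124 CPM in adults, 209 and 217 CPM in Ki67-negative against 218 and 264 CPM in Ki67-positive cells at PND8, and 145 and 165 against 167 and 172 CPM in repopulation. The PND8 libraries were all above those of repopulation, which were all above the adult ones, with log2 fold changes over adults of 0.78 ± 0.10, 0.96 ± 0.10, 0.32 ± 0.10 and 0.45 ± 0.10. With 1 of 3 libraries left out (either adult one or the second repopulation one) the repopulation Ki67-negative call was lost (edgeR adjusted p from 0.11 to 0.192). The difference between repopulation and PND8 passed in both Ki67 fractions (-0.46 ± 0.10 in Ki67-negative and -0.51 ± 0.10 in Ki67-positive cells, edgeR adjusted p = 0.00271 and 0.00174). Kif5c, a kinesin-1 heavy chain known from neurons, was low throughout, from 6 and 14 reads in adults to 38 and 39 in repopulation Ki67-positive cells (2.05 ± 0.48, edgeR adjusted p = 0.00337). It was also higher in repopulation Ki67-negative (1.76 ± 0.48) and PND8 Ki67-positive cells (1.42 ± 0.49), and Kif5a, the third heavy chain, was lower in PND8 Ki67-positive cells (11 and 10 reads against 29 and 21, -1.31 ± 0.44). Without the first adult library the Kif5c calls at PND8 (0.91, edgeR adjusted p = 0.216) and in repopulation Ki67-negative cells (1.25, 0.114) and the Kif5a call (-1.11, 0.141) were lost, as they were without 2, 1 and 2 libraries of the other group.

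Kif1a (chr1:93015455-93101874), which carries precursors of synaptic vesicles in neurons, stood apart at PND8. It had 2 and 7 reads in adults, 62 and 61 in PND8 Ki67-negative, 71 and 23 in PND8 Ki67-positive, 9 and 4 in repopulation Ki67-negative and 3 and 5 in repopulation Ki67-positive libraries. All 4 PND8 libraries lay above the other 6, with log2 fold changes over adults of 3.58 ± 0.66 and 3.26 ± 0.67 (edgeR adjusted p = 0.000659 and 0.00129), and repopulation was lower than PND8, with log2 fold changes of -3.03 ± 0.62 (Ki67-negative) and -3.31 ± 0.69 (Ki67-positive). The 7 neuron markers summed to 4.40 to 6.48 CPM in adults, 6.81 to 9.45 CPM in PND8 Ki67-negative, 3.35 to 4.08 CPM in PND8 Ki67-positive and 1.87 to 3.64 CPM in repopulation libraries. Snap25 was at 3.70 and 2.93 CPM in adults, 0.619 and 0.917 CPM in PND8 Ki67-negative and 0.220 and 0.347 CPM in PND8 Ki67-positive libraries. In repopulation it was between 0.762 and 1.87 CPM, so unlike Kif1a it was highest in adults. Rbfox3, which marks neuronal nuclei, was at 0.463 and 0.611 CPM in adults, 3.47 and 5.14 CPM in PND8 Ki67-negative, 1.76 and 1.04 CPM in PND8 Ki67-positive and between 0.288 and 1.07 CPM in repopulation libraries. Like Kif1a it was higher in PND8 Ki67-negative cells than in adults (2.98, edgeR adjusted p = 0.000839) and lower in Ki67-negative cells of repopulation than at PND8 (-2.20, 0.00546). The part of neuronal RNA in the Kif1a result was not tested. Kif21a, a relative of Kif21b, was counted at 2 to 20 reads per library and was higher in PND8 Ki67-negative cells than in adults (1.62 ± 0.59, edgeR adjusted p = 0.0379), a call lost when any of the 4 libraries was left out (adjusted p from 0.0514 to 0.19). It was lower in repopulation than at PND8 in Ki67-negative (-2.01 ± 0.63) and Ki67-positive cells (-2.13 ± 0.71), calls that were lost without 3 of 4 (0.09 to 0.139) and without any of 4 libraries (0.109 to 0.268).

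Kif1b and Kif3c were lower at PND8 than in adults and in repopulating cells. Kif1b (chr4:149176319-149307733), which carries mitochondria and vesicles, was at 141 and 125 CPM in adults and 84.4 and 78.5 CPM in PND8 Ki67-negative cells (-0.71 ± 0.12), with 97.5 and 115 CPM in PND8 Ki67-positive cells (-0.32 ± 0.12). Repopulation libraries, at 143 and 123 CPM (Ki67-negative) and 149.8 and 121 CPM (Ki67-positive), overlapped the adult ones and were higher than PND8 in Ki67-negative (0.71 ± 0.12) and Ki67-positive cells (0.35 ± 0.12). Both Ki67-positive calls of Kif1b were lost when single libraries were left out, against adults without the first PND8 or either adult library (adjusted p from 0.0578 to 0.303) and against repopulation without either PND8 or the first repopulation library (0.0514 to 0.472). Kif3c (chr12:3365132-3406494), a subunit of kinesin-2, showed the same order: 51.0 and 48.9 CPM in adults, 28.3 and 23.4 (Ki67-negative) against 22.2 and 25.5 CPM (Ki67-positive) at PND8 and 46.1 and 37.0 against 44.6 and 36.1 CPM in repopulation. It was lower at PND8 than in adults (-0.96 ± 0.16 and -1.06 ± 0.16) and higher in repopulation than at PND8 (0.70 ± 0.16 and 0.76 ± 0.16, edgeR adjusted p = 0.00383 and 0.00276). Of the other kinesin-2 motors, Kif3a passed in no comparison, and Kif3b was higher in PND8 Ki67-positive cells than in adults (0.28 ± 0.09) and lower in repopulation Ki67-positive cells than at PND8 (-0.33 ± 0.10), both lost when any of their 4 libraries was left out (0.0637 to 0.125 and 0.0502 to 0.116). The Kif3c differences between contexts were lost without the first repopulation library of either fraction (0.0608 and 0.0557).

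Kif13b and Kif1c moved in opposite directions in all 4 groups against adults. Kif13b (chr14:64652541-64809617), a kinesin-3 that binds the scaffold Dlg1, was at 134 and 139 CPM in adults and between 68.5 and 101 CPM in the other 8 libraries, with log2 fold changes of -0.57 ± 0.10, -0.80 ± 0.10, -0.52 ± 0.10 and -0.87 ± 0.10. Kif1c (chr11:70700548-70731970), a kinesin-3 of vesicles and podosomes, rose from 63.7 and 62.9 CPM to between 81.1 and 106 CPM, by 0.45 ± 0.09, 0.72 ± 0.09, 0.42 ± 0.09 and 0.72 ± 0.09. Kif16b (chr2:142618345-142901464), which moves early endosomes, was higher in 3 of the 4 groups, most in PND8 Ki67-positive cells (52.2 and 54.4 against 27.1 and 25.9 CPM, 1.01 ± 0.14), followed by PND8 Ki67-negative (0.64 ± 0.14) and repopulation Ki67-positive cells (0.56 ± 0.15). Between contexts it was lower in repopulation Ki67-positive cells (-0.45 ± 0.14), as was Kif13a (-0.32 ± 0.10), a kinesin-3 of recycling endosomes. The Kif13a call was lost without any 1 of the 4 libraries (0.0737 to 0.143), that of Kif16b without either PND8 or the second repopulation library (0.0687 to 0.196), and the rise of Kif16b in repopulation over adults without the first repopulation library (0.0995).

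**Figure D3:**
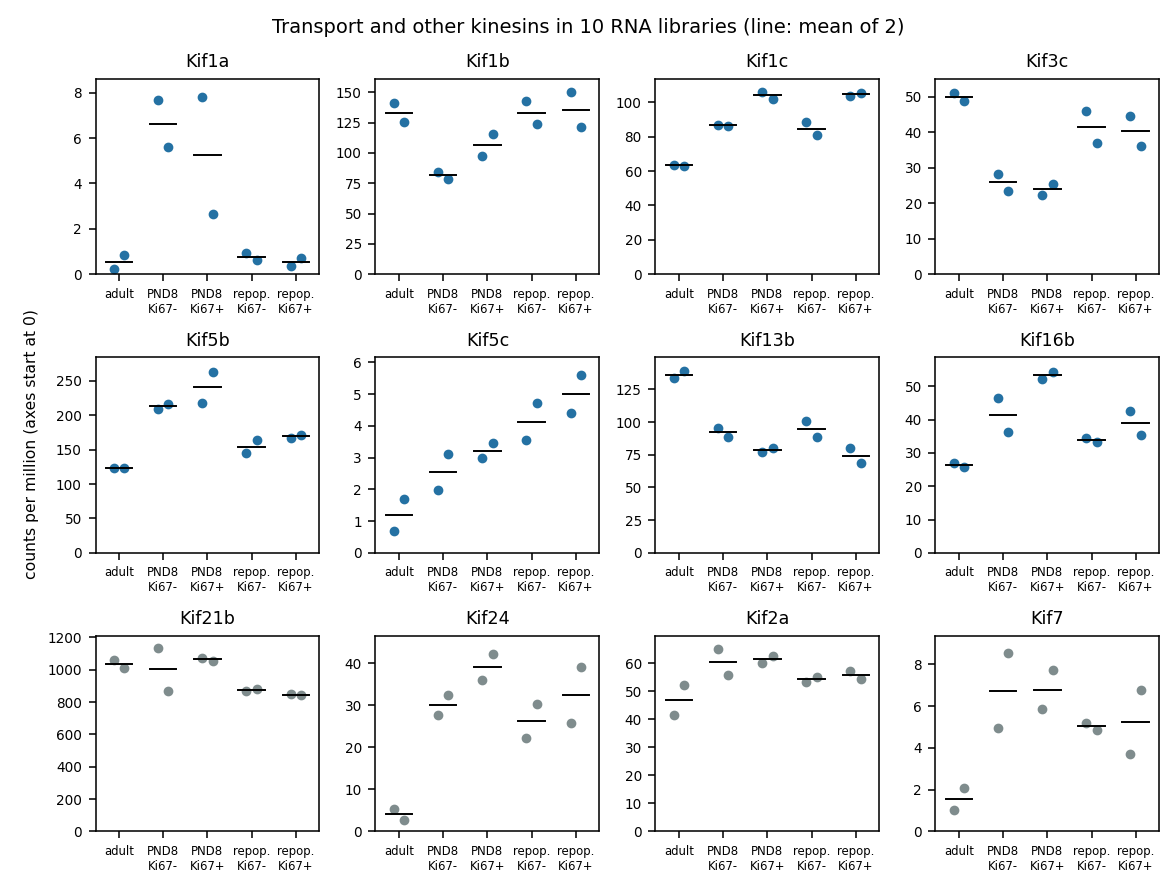
CPM of 8 transport (blue) and 4 other (grey) kinesins in the 10 RNA libraries, with lines at the mean of 2 and axes from 0. Kif1a is high in the 4 PND8 libraries, Kif1b and Kif3c are low there, Kif13b is highest and Kif5b and Kif24 lowest in adults.

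Among kinesins of other roles, Kif24 (chr4:41390748-41464848), a kinesin-13 of the mother centriole that holds back cilium growth, rose over adults in all 4 groups. It was at 5.44 and 2.81 CPM in adults and 27.6 and 32.5, 36.0 and 42.3, 22.3 and 30.3 and 25.9 and 39.2 CPM in the other groups, in the order used above. All 8 libraries lay above both adult ones, by 2.86 ± 0.29, 3.23 ± 0.29, 2.65 ± 0.29 and 2.96 ± 0.29 on the log2 scale, and between Ki67 fractions it did not pass (0.38 ± 0.23 and 0.31 ± 0.24, edgeR adjusted p = 0.391 and 0.587). Kif7, a ciliary regulator of Hedgehog signalling, was higher than in adults in all 4 groups (2.13 ± 0.45, 2.12 ± 0.45, 1.70 ± 0.47 and 1.73 ± 0.47), from 9 and 17 reads to between 32 and 93. In repopulation these calls were lost without the first adult library (edgeR adjusted p = 0.108 and 0.0894) and without the first Ki67-negative (0.0523) or the second Ki67-positive library (0.104). Its span overlaps the gene Ticrr on the other strand by 48 bases. Ticrr, a replication factor, stood at 1.39 and 0.852 CPM in adults and at 35.4 to 67.3 CPM in the other 8 libraries, as a share of the unscaled total. With the strand setting not given, the part of Ticrr reads in the Kif7 result was not tested.

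Smaller differences were called for Kif2a, which takes microtubule ends apart (0.37 ± 0.13 and 0.39 ± 0.13 at PND8), for Kif1bp (-0.30 ± 0.11 and -0.29 ± 0.11 at PND8) and for Kif21b (-0.29 ± 0.11 in repopulation Ki67-positive cells against adults and -0.33 ± 0.11 against PND8). Kif9, a kinesin of motile cilia, was lower in PND8 Ki67-positive cells than in adults (-0.84 ± 0.33) and higher in repopulation Ki67-positive cells than at PND8 (1.10 ± 0.32). Each of these calls was lost without at least 2 single libraries, at edgeR adjusted p-values up to 0.297 for Kif2a, 0.2 for Kif1bp, 0.187 for Kif21b and 0.249 for Kif9. The 5 ependymal markers, from cells with motile cilia, summed to at most 1.65 CPM. Kif3a, Kif19a and Kif27 passed in no comparison.

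Between repopulation and PND8, then, 8 of 32 members were lower and 3 higher among Ki67-positive cells (14.2% and 16.7% of all genes), and 3 lower and 2 higher among Ki67-negative cells (18.6% and 18%). These totals of 11 and 5 became 3 to 7 and 4 to 9 when single libraries were left out, and 17 and 12 in the fit with the header code as a covariate. The fit with the code called 4402 of 12230 genes among Ki67-positive and 5346 among Ki67-negative cells. The contexts share a code only between the second PND8 and the first repopulation libraries, so that fit compares them directly only there. Border macrophage markers (Mrc1, Lyve1, Pf4 and Cd163) summed to 571 to 843 CPM at PND8, 25.9 to 42.3 CPM in repopulation and 57.7 to 66.0 CPM in adults. Most of the PND8 sum was Mrc1, at 520 to 834 CPM, and the other markers reached at most 27.1 CPM there. Each marker was higher in all PND8 than in all repopulation libraries. Cd163 was lower in PND8 Ki67-positive libraries (2.31 and 3.47 CPM) than in adults (4.05 and 8.31 CPM). The part of border macrophages in the differences between repopulation and PND8 was not tested.

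The third question was which marks the start sites of kinesin genes carry in each context. A member counted as marked where the authors' peak list of a library held a peak within 1 kb of its start site in the count table. H3K4me3 was found in both adult libraries at 10 of 12 mitotic, 13 of 13 transport and 10 of 14 other kinesins, against 59.1% of all start sites. Open chromatin in adults was found at 10, 11 and 7 of them (56% of all), in PND8 Ki67-positive cells at 10, 11 and 9 (58.4%) and in repopulation Ki67-positive cells at 10, 12 and 9 (60.8%). The same 10 mitotic genes, all but Kif14 and Kif2b, held these peaks in the 3 ATAC lists and both H3K4me3 lists, and Kif14 held H3K4me3 in the first adult library only. Adult microglia, in which the transcripts were scarce, thus held H3K4me3 and open chromatin at these 10 start sites. With only the H3K4me3 peaks scored above the median of their list, 3 mitotic, 7 transport and 6 other kinesins counted as marked.

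H3K27ac counts differed between groups, as did the share of all start sites with a peak. In adults it lay in both libraries at 7 of 12 mitotic, 5 of 13 transport and 4 of 14 other kinesins, against 40.8% of all start sites. The numbers were 10, 8 and 5 in PND8 Ki67-negative cells (48.1% of all) and 11, 9 and 6 in PND8 Ki67-positive cells (49.2%). After cuprizone they were 9, 6 and 5 in Ki67-negative (43.8%) and 9, 8 and 5 in Ki67-positive cells (45.8%), and in repopulation Ki67-positive cells 9, 9 and 5 (47.2%). The first adult library had the shortest H3K27ac list, at 19572 peaks against 24082 to 30539 in the other 11, and without it 8 rather than 5 transport kinesins counted as marked in adults. Kif1a, Kif5a, Kif5c and Kif2b had no H3K27ac peak in any of the 12 libraries. With only the peaks scored above the median of their list, the mitotic kinesins marked were 0 in adults, 4 and 6 at PND8, 1 and 1 after cuprizone and 4 in repopulation, Ki67-negative first.

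**Figure D4:**
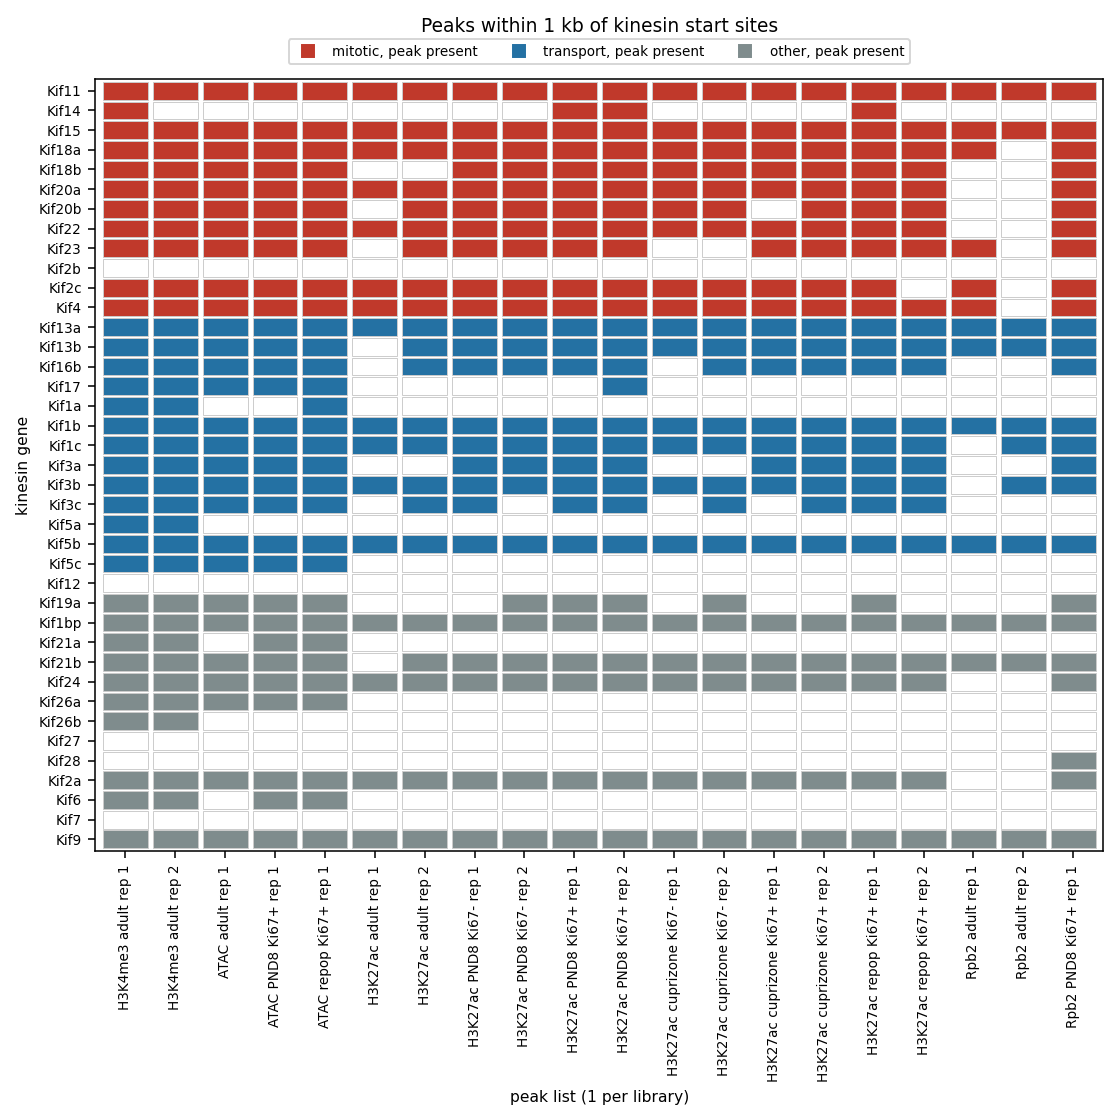
Peaks within 1 kb of the start sites of the 39 members (rows, by role) in the 20 peak lists (columns). Filled cells mark a peak: 10 mitotic kinesins are filled in every H3K4me3 and ATAC column, and Kif14 is filled for H3K27ac in both PND8 Ki67-positive libraries and 1 repopulation library.

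At PND8, H3K27ac at mitotic start sites was higher in Ki67-positive cells. The authors' tag counts, scaled by them to a fixed number of tags per library, are set side by side here for the strongest peak in the window and were not tested. For Kif18b they were 79.1 and 70.4 in Ki67-negative and 244 and 266 in Ki67-positive libraries at PND8, 30.0 and 50.5 against 126 and 164 after cuprizone and 173 and 192 in repopulation, and neither adult library had a peak. Both Ki67-positive libraries thus lay above both Ki67-negative ones at PND8 and after cuprizone, and the same held per kb of peak, since peaks differ in width (59.7 and 44.2 against 126 and 130.1 tags per kb at PND8, 37.3 and 49.9 against 77.5 and 93.2 after cuprizone). Kif4 showed the same order, 36.3 and 30.9 tags in adults, 59.2 and 52.4 against 201 and 147 at PND8 and 45.0 and 51.0 against 90.6 and 131 after cuprizone. Kif23 had 32.1 and 76.3 tags in Ki67-negative and 163 and 209 in Ki67-positive libraries at PND8, no peak in the first adult library and in either Ki67-negative cuprizone library, and 59.1 and 114.4 tags in the Ki67-positive cuprizone libraries. Kif14 had a peak in both PND8 Ki67-positive libraries (64.7 and 85.6 tags) and in the first repopulation library (45.4 tags) and in none of the other 9.

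Over the list, 10 mitotic kinesins had a peak in all 4 PND8 libraries, and in 10 of 10 both Ki67-positive libraries exceeded both Ki67-negative ones, as did 39.2% of all 9977 start sites with 4 peaks. Per kb of peak it was 7 of 10 against 27.3%, the exceptions being Kif11, Kif15 and Kif20a, and no mitotic or transport kinesin was lower in both, against 4.58% of all. The median log2 ratio of the group means was 0.98 for these 10 (0.56 per kb), 0.22 for 8 transport kinesins and 0.19 for all start sites, and 1 of 8 transport kinesins (Kif13a) was higher in both libraries, while Kif13b was lower in both, as were 3.38% of all start sites (161 and 212 against 249 and 218 tags). After cuprizone 3 of 8 mitotic kinesins (Kif4, Kif11 and Kif18b) were higher in both Ki67-positive libraries, against 6.32% of all 8893 start sites, with a median of 0.39, and 0 of 6 transport kinesins. Per kb it was 2 of 8 (Kif4 and Kif18b) against 8.35%, 3 of 8 were lower in both against 19%, and the median was -0.01.

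Against adults, H3K27ac tag counts were compared at start sites that held peaks in all 4 libraries of a comparison. Kif11, Kif15, Kif18a, Kif20a, Kif22, Kif2c and Kif4 exceeded both adult libraries in both PND8 Ki67-negative (7 of 7, against 48.3% of all start sites) and both PND8 Ki67-positive libraries (7 of 7, against 60%), and 2 and 3 of 5 transport kinesins did, among them Kif13a and Kif5b. For cuprizone it was 5 of 7 in Ki67-negative (43.1%) and 6 of 7 in Ki67-positive cells (43.2%), and in repopulation 6 of 6 (54.4%). Of 5 transport kinesins, 2, 3 and 4 were higher in these 3 groups. Per kb of peak the mitotic counts were 3 of 7 (40.5%), 7 of 7 (54.1%), 4 of 7 (45.5%), 1 of 7 (41%) and 4 of 6 (40.7%) in the same order, so after cuprizone the Ki67-positive count fell from 6 to 1 when peak width was taken into account. The transport counts per kb were 2, 2, 2, 2 and 3 of 5.

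**Figure D5:**
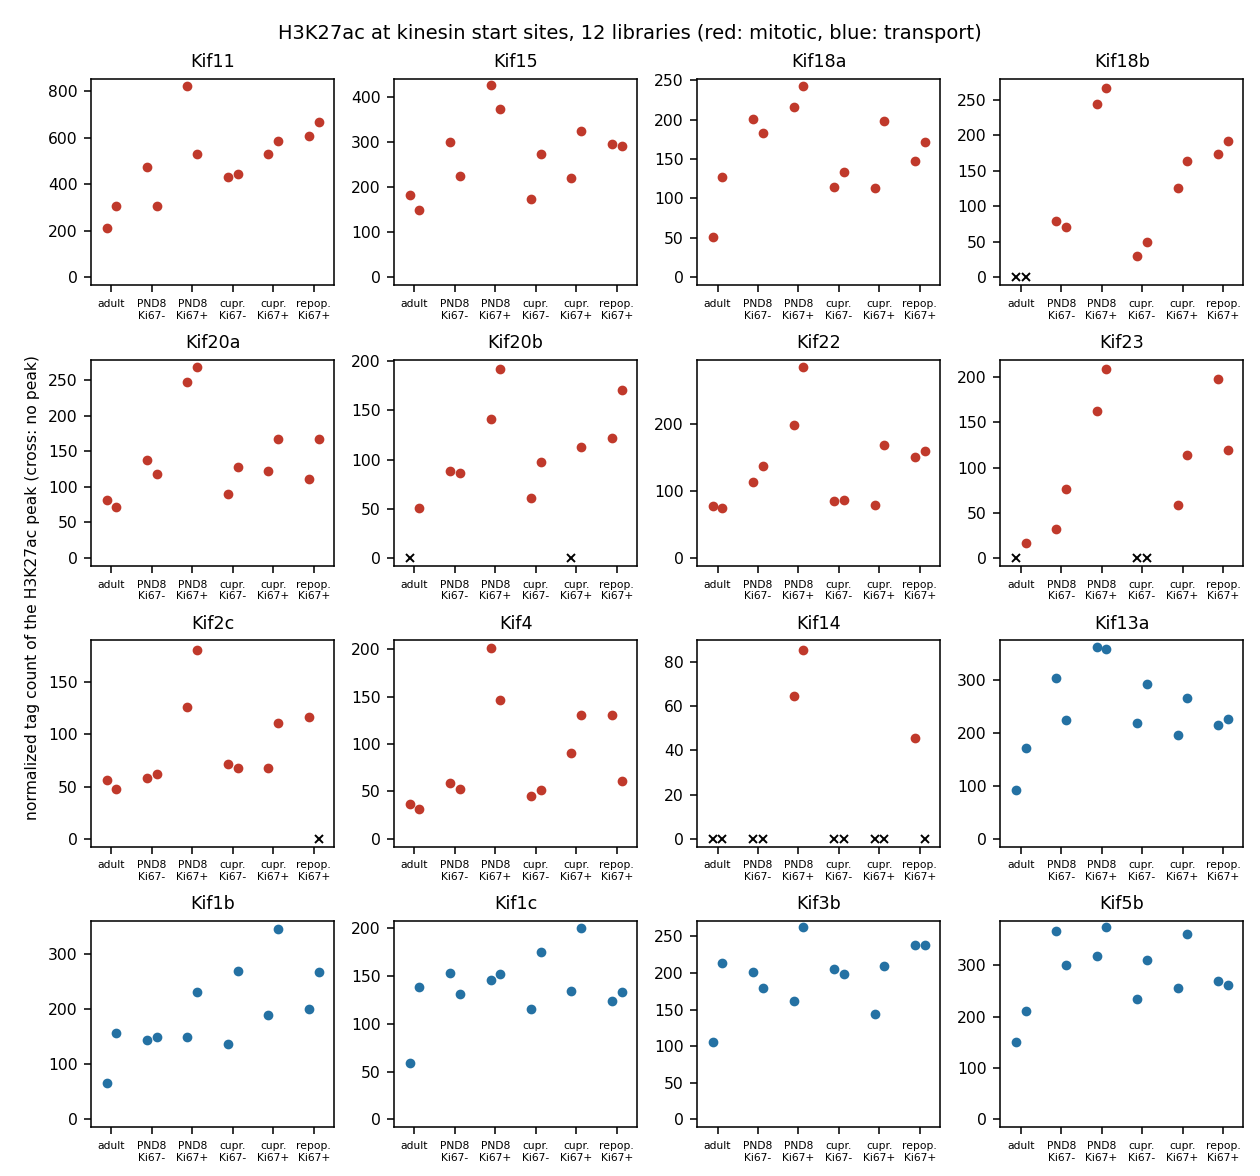
Normalized tag counts of the strongest H3K27ac peak within 1 kb of the start, for 11 mitotic (red) and 5 transport (blue) kinesins in 12 libraries, with crosses where the list held no peak. In the red panels both PND8 Ki67-positive libraries lie above the PND8 Ki67-negative ones, and in the blue panels these groups overlap except for Kif13a.

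Some start sites are shared. Kif20a starts 73 bases from Brd8, Kif15 81 bases from 1110059G10Rik and Kif4 124 bases from Pdzd11. Kif24 starts 300 bases from Nudt2, Kif9 300 bases from Klhl18 and Kif1c 393 bases from Inca1. Each neighbour lies on the other strand, so the peaks of these kinesins cannot be assigned to 1 gene. The start of Kif2c in the count table lies 3852 bases from that of RefSeq, and that of Kif7 1521 bases. Kif2c's peaks lay at the table's start and none at that of RefSeq, whereas Kif7, without a peak at the table's start, had H3K4me3 in both adult libraries, open chromatin in all 3 ATAC lists, and H3K27ac in 1 and Rpb2 in the only PND8 Ki67-positive library at that of RefSeq.

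RNA polymerase II was mapped through Rpb2 at fewer start sites in adults than at PND8, among kinesins as among all genes. In adults both libraries held a peak at 2 of 12 mitotic (Kif11 and Kif15), 4 of 13 transport and 3 of 14 other kinesins, against 28.1% of all start sites. The 2 adult libraries differed, with 6 mitotic kinesins in the first and 2 in the second (36% and 30.6% of all start sites, from lists of 14550 and 10544 peaks). Taken singly, they held peaks at 4 and 6 transport and at 3 and 3 other kinesins. In the single library of PND8 Ki67-positive cells, with 31602 peaks, 10 mitotic, 8 transport and 7 other kinesins were marked, against 48.4% of all. Kif18b, Kif20a, Kif20b and Kif22 were the mitotic kinesins with a peak there and in neither adult library. The PND8 list has no replicate and, per its header, was called against the H3K27ac input, so the difference has no replicate check.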

How the data were processed

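The labels give polyA-selected, strand-marked RNA libraries, and the submitters' processing notes name STAR 2.7.0f, Bowtie2 2.3.4.1, HOMER 4.11, DESeq2 and the builds mm10 and GRCm38. Per the file headers, the authors made the RNA counts with HOMER over the exons of 1 mm10 transcript per gene, unscaled and with at most 3 tags per position; the strand setting is not given in the sources used here. The authors deposited a second table of TPM for the same libraries. Per the file headers, peaks were called by the authors in each library at a false discovery rate of 0.001 and, for ChIP, 4-fold over input, with a tag count signal scaled to a fixed number of tags and a peak score. The ATAC headers name no build.

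Samples were grouped by the labels. Counts of 20999 genes were filtered by edgeR's filterByExpr, leaving 12230, scaled by TMM and fitted over all 10 libraries with the quasi-likelihood test (edgeR 4.0.16, R 4.3.3, Benjamini-Hochberg, threshold 0.05). SE is the absolute log2 fold change over the root of F. On simulated counts for the PND8 Ki67 comparison (11957 genes), 83 of 88 genes with 2-fold changes were recovered. With 4-fold changes 112 of 112 were recovered, and there were 9 false calls. Whether the deposited libraries, with their own spread between replicates, allow the same recovery was not tested. A peak counted within 1 kb of the start site in the count table. Named are all members that passed the threshold and members the design names by role. The members and lists were chosen with earlier results of these data known. Alternatives were DESeq2 1.42.0, RLE or no scaling, no filter, limma 3.58.1 on log2 TPM with pseudocounts of 1 and 0.1, only the groups compared, a replicate block, the header code as a batch term (not for comparisons with adults), each library left out, and stricter peak lists. Tag counts per kb, RefSeq start sites and the 300-base motif window were added after seeing the data. Replicates of a group correlated at 0.978 to 0.990 and differed by more than sampling noise.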

Additional observations from a re-analysis of the deposited data

How the results depend on the processing

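No call reversed: among values of called kinesins under the alternatives, 1371 kept their side of the threshold and 143 lost it. The 11 mitotic kinesins kept their calls at PND8 and against adults under every alternative run (143 of 143 values at PND8 and 132 of 132 in each comparison with adults), and in repopulation 129 of 143 did. Leaving out libraries gave 7 to 11 called kinesins in repopulation between Ki67 fractions, 3 to 7 (11 with all) between contexts in Ki67-positive and 4 to 9 (5 with all) in Ki67-negative cells. The header code as a batch term gave 17 and 12 there, where it called 4402 and 5346 of 12230 genes. The cause was not tested. Comparisons with adults could not be fitted with it, since adults have a code of their own. PND8 and repopulation share a code only between the second PND8 and the first repopulation libraries. Between Ki67 fractions, and in the interaction, the replicate block was the same fit as the header code. The counts of values above hold it under both names. It called 16 rather than 11 kinesins at PND8 (15 higher, among them Kif1b, Kif1c, Kif3b and Kif16b, and Kif9 lower). In repopulation it called 13 (Kif1c higher, Kif13b lower). Of all 12230 genes it called 1862 and 1213. Same-numbered libraries correlated at 0.338 and 0.263, but the labels do not say that a number pairs them. With only the peaks scored above the median of their list, mitotic, transport and other kinesins marked by H3K27ac fell to 4, 2 and 3 in PND8 Ki67-negative, 6, 5 and 3 in PND8 Ki67-positive, 0, 3 and 2 in adult, 1, 2 and 3 in cuprizone Ki67-negative, 1, 0 and 1 in cuprizone Ki67-positive and 4, 4 and 3 in repopulation cells, those by H3K4me3 to 3, 7 and 6, and mitotic and transport kinesins with Rpb2 in adults to 1 and 2. Leaving out an adult library gave 5 to 8 transport kinesins with H3K27ac and 2 to 6 mitotic kinesins with Rpb2. Adult counts of under 20 reads limit the precision of the fold changes of Kif4, Kif14, Kif18a, Kif18b and Kif2c.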
